A study of Mus musculus with 19 samples.

Results

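The 7 genes described here encode the core of MHC class II antigen presentation in the mouse: Ciita, Cd74, H2-Aa, H2-Ab1, H2-Eb1, H2-DMa and H2-DMb1. They were chosen by symbol, though with earlier results of these data known. All 7 were among the 14246 genes listed in every cell set of the series. MHC class II molecules are pairs of an alpha and a beta chain that display peptides from the endosomes of antigen-presenting cells to CD4+ T cells. Their genes are switched on together by the transactivator Ciita, which does not bind DNA itself but joins a complex of RFX, NF-Y and CREB proteins on a shared promoter module. New chains are held by the invariant chain Cd74 until the H2-DM molecule exchanges its last fragment for a peptide. In bone marrow the class is known from B cells, dendritic cells and macrophages, and is low in neutrophils.

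RNA was sequenced from 19 libraries of mouse bone-marrow cells in 6 groups. Myeloid cells sorted for CD11b came from animals of 4 months (young Cd11b, 3 MT and 4 WT libraries) and of 18 months (old Cd11b, 3 MT and 3 WT). LK cells, which lack lineage markers, carry the receptor c-Kit and hold stem cells and progenitors, came from animals of 18 months (LK, 3 MT and 3 WT). MT stands for mutant Asxl1, a chromatin regulator gene, and WT for wild type. The labels give neither the allele, promoter or Cre of the mutation nor the strain, and do not say whether replicates are separate animals, so p-values measure the spread between these libraries, which may be technical.

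The libraries held between 26251822 and 38347903 counts each in young Cd11b cells, 41909460 to 68260809 in old ones and 31853263 to 59882448 in LK cells. Levels are given as CPM, counts scaled to a common library size with TMM factors over the genes of all sets. The Itgam gene, which encodes CD11b, lay between 1480 and 3462 CPM in the Cd11b libraries and between 45.2 and 85.6 CPM in the LK libraries. Asxl1 itself was at 92.4 to 97.3 CPM in LK MT cells and at 106 to 117 CPM in LK WT cells, a log2 difference of -0.28 ± 0.06 (SE; edgeR adjusted p = 0.0119), while its young and old Cd11b values did not pass the test. Young MT replicate 3 and young WT replicate 4 were the only young libraries with the Y-linked gene Ddx3y above 100 CPM, and every library of 18 months had it at 50.3 CPM or more. In the 18-month groups, replicates 2 and 3 differed by a chi-square per degree of freedom of 2.92 to 6.39, against 13.7 to 44.6 for pairs that include replicate 1. Replicates 2 and 3 were therefore nearer to each other than to replicate 1 in every one of these 4 groups, and results were also computed with their counts summed.

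Over the 6 groups the members fell into 3 patterns. Cd74 and the classical chains H2-Aa, H2-Ab1 and H2-Eb1 were highest in old Cd11b cells, lower in young Cd11b cells and lowest in LK cells. Ciita overlapped between young and old WT Cd11b cells and was far lower in LK cells. H2-DMa stayed within a narrow band in all groups, and H2-DMb1 was higher in old Cd11b cells than in the other sets.

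**Figure D1:**
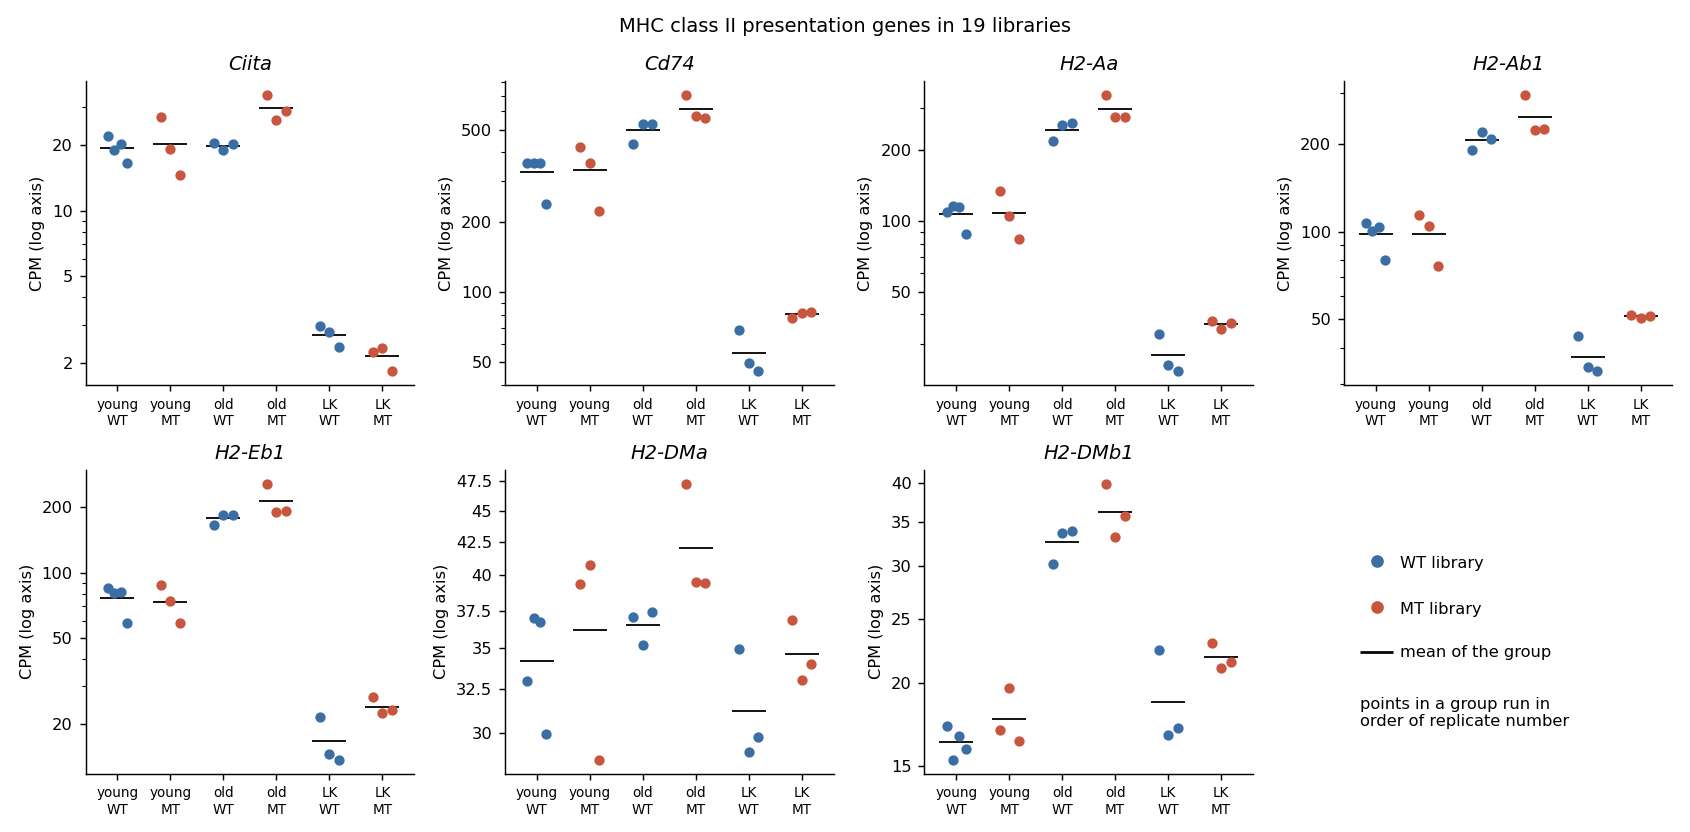
Level of each member in each library (CPM, log axis) in the 6 groups, with a line at the mean of the group and the points of a group in order of replicate number. The LK libraries of Ciita lie between 1.83 and 2.95 CPM, below all Cd11b libraries, while the H2-DMa values of all 19 libraries lie between 28.5 and 47.3 CPM.

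Ciita, the transactivator of the class (chromosome 16, 10480059 to 10528418, plus strand, GRCm38), stood at 22.1, 18.9, 20.2 and 16.5 CPM in replicates 1 to 4 of young WT cells and at 26.8, 19.3 and 14.6 CPM in young MT cells. Old WT cells had 20.4, 18.9 and 20.3 CPM and old MT cells 34.05, 26.03 and 28.8 CPM. LK WT cells had 2.95, 2.78 and 2.37 CPM and LK MT cells 2.24, 2.35 and 1.83 CPM. All 3 old MT libraries were above all 3 old WT libraries, whereas all 3 LK MT libraries were below all 3 LK WT libraries. Of all genes tested, 11.1% and 21.2% were separated in these ways. Ordered by mean, the groups ran from old MT (29.6 ± 4.07 CPM; mean ± SD, n = 3) through young MT, old WT and young WT to LK WT (2.70 ± 0.301) and LK MT (2.14 ± 0.275). The Cd11b groups overlapped their neighbours in this order, and LK WT did not overlap young WT or LK MT. Even the lowest library held 97 counts of Ciita.

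The classical chains lie together on chromosome 17 of GRCm38: H2-Ab1 at 34257689 to 34269419 (plus strand), H2-Aa at 34282744 to 34287823 (minus strand) and H2-Eb1 at 34305867 to 34316674 (plus strand). Their promoters are known for a module of an X box, bound by RFX and CREB proteins, followed by a Y box, bound by NF-Y, on which Ciita acts. Cores of these boxes are shown for the class II genes with a RefSeq promoter entry (GRCm38.p6). The X core was searched as GCAAC and the Y core as ATTGG, 25 to 30 bases apart, on both strands of the 300 bases around each start. That spacing was chosen after the sequences of H2-Aa and H2-Eb1 were seen, so the matches of these genes were fixed in advance. The pair was present in 5 of 8 class II genes with an entry, namely H2-Aa, H2-Eb1, H2-Eb2, H2-Oa and H2-Ob, and in 0.283% of all 32851 promoters. ATTGG alone was present in 37.4% and GCAAC alone in 35.2% of them. In the stretches below, written 5′ to 3′ on the strand of the gene, capitals mark the cores that matched.
H2-Aa: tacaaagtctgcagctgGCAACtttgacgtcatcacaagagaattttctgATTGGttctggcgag
H2-Eb1: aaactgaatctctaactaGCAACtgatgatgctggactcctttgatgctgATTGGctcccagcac
H2-Eb2: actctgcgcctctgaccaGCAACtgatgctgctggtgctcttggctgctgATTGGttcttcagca
H2-Oa: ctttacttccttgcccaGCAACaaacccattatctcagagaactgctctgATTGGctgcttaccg
H2-Ob: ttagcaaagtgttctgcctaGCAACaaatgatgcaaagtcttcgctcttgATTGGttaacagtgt
H2-DMb1: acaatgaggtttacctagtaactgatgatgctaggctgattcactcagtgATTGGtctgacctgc
H2-DMb2: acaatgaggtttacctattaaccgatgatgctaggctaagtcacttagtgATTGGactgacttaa
The H2-Aa stretch is chr17:34287857-34287921 and the H2-Eb1 stretch chr17:34305758-34305822, and 28 and 27 bases separate their cores. H2-DMb1 (chr17:34153080-34153144) and H2-DMb2 (chr17:34145109-34145173) matched the Y core only, and neither of the 2 entries of H2-DMa held the pair. Only exact letters were searched, and H2-DMb1 holds gtaac, 1 base from the X core, 28 bases before its Y core. A miss therefore does not show that an X box is absent. Of 4 members with an entry, 2 thus held the pair, and these are the genes on which the spacing was set. The promoter set used here held no entry for H2-Ab1 or Ciita, and no promoter of Cd74 was scanned. A match describes the letters in the window and no more.

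H2-Aa, the alpha chain of the I-A molecule, was at 109, 115, 114 and 87.7 CPM in young WT cells and at 134, 104 and 84.1 CPM in young MT cells. In old cells it was at 218, 254 and 260 CPM in WT and at 343, 276 and 276 CPM in MT libraries. LK WT cells had 33.1, 24.5 and 22.96 CPM and LK MT cells 37.3, 34.6 and 37.0 CPM. In both 18-month sets every MT library was above every WT library, and in young cells the genotypes overlapped.

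H2-Ab1, the beta chain that pairs with H2-Aa, had 108, 101, 104 and 79.9 CPM in young WT cells and 114, 105 and 76.2 CPM in young MT cells. Old WT cells had 191, 220 and 209 CPM, and old MT cells had 296, 224 and 226 CPM. LK WT cells had 43.8, 34.3 and 33.1 CPM and LK MT cells 51.6, 50.5 and 51.5 CPM. The order of the groups was that of H2-Aa, with the 2 young groups overlapping and no other neighbours doing so.

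H2-Eb1, the beta chain of the I-E molecule, had 85.2, 80.7, 81.1 and 58.5 CPM in young WT cells and 87.9, 74.1 and 58.6 CPM in young MT cells. Old WT cells had 166, 184 and 185 CPM and old MT cells 258, 191 and 192 CPM. LK WT cells had 21.6, 14.5 and 13.6 CPM and LK MT cells 26.5, 22.4 and 23.1 CPM. As for the other classical chains, only the 2 young groups overlapped.

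Per transcript length (RPKM, the CPM per kilobase of the main annotated transcript), H2-Aa exceeded H2-Ab1 by a ratio of 1.27 ± 0.0609 in old WT cells (SD, n = 3) and of 1.17 ± 0.0582 in young WT cells (n = 4). In LK cells the order was turned, with ratios of 0.774 ± 0.0347 in WT and 0.762 ± 0.0219 in MT libraries. Across all Cd11b libraries the lowest ratio was 1.07, above the highest LK ratio of 0.812. The ratio of H2-Aa to H2-Eb1 was 2.07 ± 0.136 in young WT, 2.02 ± 0.0711 in old WT and 2.42 ± 0.13 in LK WT cells. The ratio of the 2 chains of I-A thus did not overlap between Cd11b and LK libraries. These ratios assume that 1 annotated transcript stands for each gene.

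Cd74, the invariant chain that escorts class II chains to the endosome, was the most abundant member per length, at 353 ± 38.6 RPKM in old WT cells against 216 ± 20.2 RPKM for H2-Aa and 3.31 ± 0.135 RPKM for Ciita (SD, n = 3). In CPM it was at 359, 359, 360 and 239 in young WT libraries and at 421, 359 and 225 in young MT libraries. Old WT libraries had 436, 532 and 527 CPM, and old MT libraries 706, 573 and 560 CPM. LK WT libraries had 68.8, 49.9 and 45.7 CPM, and LK MT libraries 77.6, 81.4 and 82.5 CPM. The MT libraries of both 18-month sets lay above their WT libraries without overlap, and the last-numbered library of each young group was the low one. The ratio of Cd74 to H2-Aa per length was 2.46 ± 0.2 in young WT cells, 1.63 ± 0.039 in old WT cells and 1.63 ± 0.0347 in LK WT cells.

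H2-DMa and H2-DMb1 encode the chains of H2-DM, the endosomal peptide editor, and lie on chromosome 17 at 34119541 to 34139101 and at 34153072 to 34160230 (both plus strand). Reads of H2-DMb1 may be shared with its near-identical neighbour H2-DMb2, so its level is uncertain where counting splits them. H2-DMa was at 36.5 ± 1.19 CPM in old WT cells (SD, n = 3), 34.2 ± 3.37 CPM in young WT cells (n = 4) and 31.2 ± 3.27 CPM in LK WT cells (n = 3). Old MT cells, at 42.1 ± 4.54 CPM, did not overlap old WT cells, and from old WT downward every group overlapped the next. H2-DMb1 was at 32.6 ± 2.03 CPM in old WT, 16.3 ± 0.834 CPM in young WT and 18.8 ± 3.21 CPM in LK WT cells. Its 2 old groups overlapped each other and stood clear of all other libraries. Per length, H2-DMa was at 0.219 ± 0.0107 of H2-Aa in young WT cells, 0.103 ± 0.0115 in old WT cells and 0.802 ± 0.0813 in LK WT cells. The RNA levels of these 2 genes were thus nearest to each other in LK cells, where H2-Aa was lowest.

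LK cells were first set against old Cd11b cells of the same age and genotype. All 7 members were lower in LK cells, in WT and in MT libraries alike, and no LK library overlapped an old Cd11b library of its genotype for any of them, as held for 40.1% of all genes tested in WT and 40.3% in MT in that direction. Of all genes tested, 41.7% were called lower and 45.1% higher in WT (edgeR quasi-likelihood test, adjusted p under 0.05), and 41.9% and 45.9% in MT. A lower level was therefore common, and what set members apart among themselves was size. The median member difference was -2.97 (log2) in WT and -3.03 in MT, beside medians of 0.08 and 0.10 over all genes tested and a median size of 1.21 and 1.22.

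The largest WT difference was that of H2-Eb1, at -3.52 ± 0.16 (log2 fold change ± SE; edgeR adjusted p = 7.95e-08). Cd74 differed by -3.28 ± 0.15, H2-Aa by -3.28 ± 0.13, Ciita by -2.97 ± 0.10 and H2-Ab1 by -2.58 ± 0.10, all with edgeR adjusted p of 1.03e-07 or less. The editor genes changed less, H2-DMb1 by -0.89 ± 0.11 (edgeR adjusted p = 5.73e-05) and H2-DMa by -0.33 ± 0.07 (edgeR adjusted p = 0.00256). In MT libraries the values were -3.26 for H2-Eb1, -3.03 for Cd74, -3.14 for H2-Aa, -2.39 for H2-Ab1, -0.83 for H2-DMb1 and -0.39 for H2-DMa. For Ciita the MT value was -3.90 ± 0.14 (edgeR adjusted p = 6.49e-09), the largest of the 7 in MT. These are bulk samples, in which fewer cells of a type and less RNA per cell cannot be told apart. With all libraries in 1 fit, H2-DMa in WT was no longer called.

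Old Cd11b cells were next set against young Cd11b cells. In WT, 5 of 7 members rose and none fell, beside 36.1% of all genes called higher and 36.9% called lower. In MT the same number, 5 of 7, rose, beside 35.2% and 36.5% of all genes. H2-Eb1 rose by 1.20 ± 0.11 in WT (log2; edgeR adjusted p = 5.8e-06) and by 1.50 ± 0.19 in MT (edgeR adjusted p = 0.000593). H2-Aa rose by 1.18 ± 0.10 and 1.43 ± 0.19, H2-Ab1 by 1.06 ± 0.10 and 1.30 ± 0.19, and H2-DMb1 by 0.98 ± 0.07 and 0.99 ± 0.10, in WT and MT respectively. Cd74 rose by 0.58 ± 0.14 in WT (edgeR adjusted p = 0.00449) and by 0.83 ± 0.25 in MT (edgeR adjusted p = 0.0284). The MT call of Cd74 was lost without young MT replicate 2 (edgeR adjusted p = 0.0551) or without old MT replicate 3 (edgeR adjusted p = 0.0505). With a trend on transcript length removed, both calls of Cd74 were lost, at 0.28 in WT (edgeR adjusted p = 0.0706) and 0.59 in MT (edgeR adjusted p = 0.057). Ciita differed by 0.01 ± 0.10 in WT and 0.51 ± 0.22 in MT and H2-DMa by 0.08 ± 0.08 and 0.18 ± 0.14, none past the threshold (edgeR adjusted p of 0.907, 0.082, 0.408 and 0.298). Without young MT replicate 1, Ciita in MT was called, at 0.77 (edgeR adjusted p = 0.00348). With the length trend removed Ciita was called in both genotypes, at 0.39 in WT (edgeR adjusted p = 0.00376) and 0.87 in MT (edgeR adjusted p = 0.0101), and in MT it was also called by DESeq2 and with all libraries in 1 fit. In CPM, the old WT libraries of Ciita lay within the range of the young WT libraries. Those of Cd74, the 3 classical chains and H2-DMb1 lay above all young libraries in WT and in MT, as did 36.9% and 39.3% of all genes tested.

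The young and old sets differ in more than age. In WT 10027 of 13719 genes were called between them, and the sets were deposited with different gene lists, so age and set cannot be told apart. Every old library had the Y-linked gene Ddx3y at 75.96 CPM or more, and of the young libraries only MT replicate 3 and WT replicate 4 did. Sex, which the labels do not give, is thus unbalanced between the sets as well, and its part was not tested. The young libraries with Ddx3y, which share that gene's expression with the old libraries, were the lowest of the young ones for Cd74, at 225 and 239 CPM, and these 2 libraries were also the lowest in B cell and plasmacytoid markers. Neutrophil markers summed to 47110 to 63090 CPM in young and 151000 to 184100 CPM in old libraries, B cell markers to 127 to 323 CPM and 54.7 to 177 CPM, and plasmacytoid dendritic cell markers to 46.7 to 152 CPM and 11.5 to 33.9 CPM. The plasmacytoid sum was thus lower in every old library, and the B cell sum overlapped through old MT replicate 1, at 177 CPM, while the chains were higher. Macrophage markers summed to 412 to 636 CPM in young and 539 to 760 CPM in old libraries, and 7 of the 10 tested rose in WT and 3 in MT, where 1 fell. Of 8 conventional dendritic cell markers tested in WT, 3 rose and 4 fell. The part of these cells in the result was not tested.

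**Figure D2:**
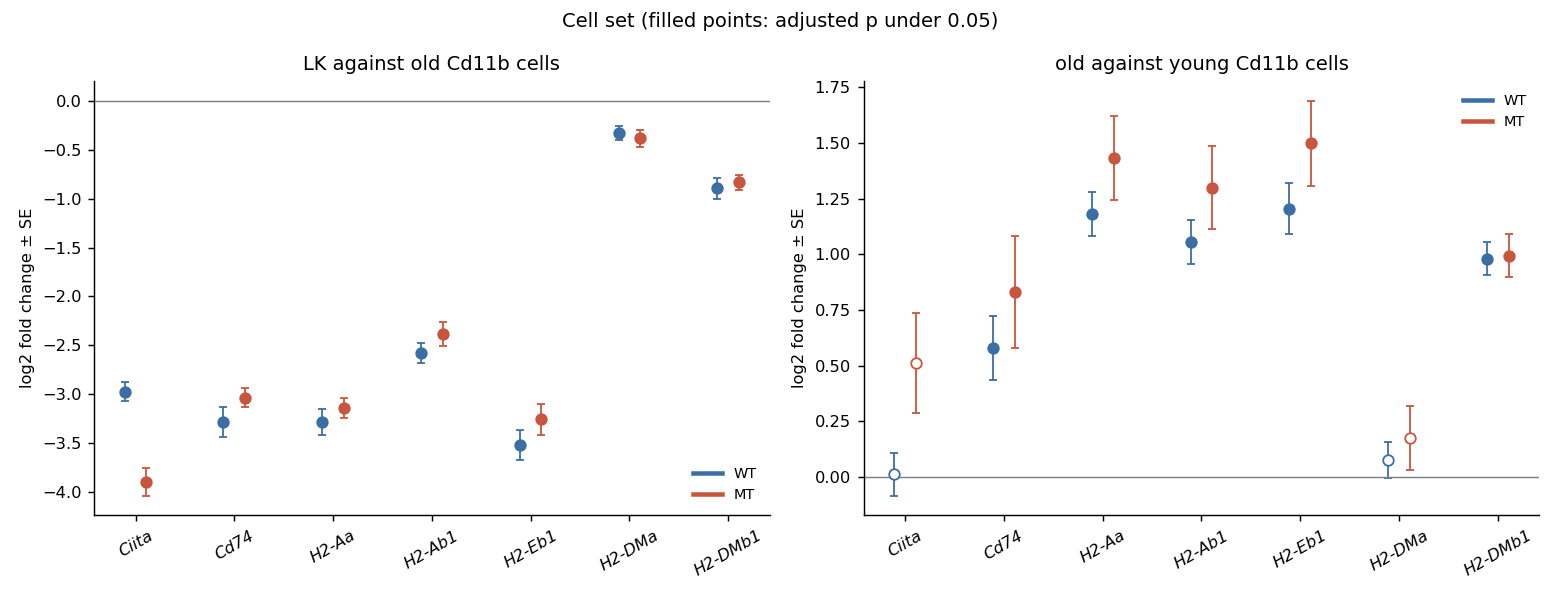
Log2 fold change ± SE of each member for LK against old Cd11b cells (left) and for old against young Cd11b cells (right) in WT and MT libraries, with filled points for an adjusted p under 0.05. All points of the left panel are filled and below 0, with the editor genes nearest to it, and in the right panel Ciita and H2-DMa are open in both genotypes.

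The genotype was compared within each cell set, the question the series poses for mutant Asxl1. In young Cd11b cells no member was called, and neither was any gene among 13755 tested (0%; 444 genes had an unadjusted p under 0.05, none of them a member, and DESeq2 called 19 genes). Over all genes, 16 were called with the replicate number as a block. With young MT replicate 3 and young WT replicate 4, the young libraries with Ddx3y, left out, 69 were called. No member was called under any of the 14 alternatives. The member differences ran from -0.06 ± 0.16 for H2-Eb1 to 0.12 ± 0.09 for H2-DMb1 (log2 ± SE). MT and WT libraries overlapped for all 7 members, and 4.44% of all genes did not overlap. Young MT replicate 3 and young WT replicate 4 were low together, in Cd74 as in the chains, and the B cell marker sum of these 2 libraries was 127 and 150 CPM against 243 to 323 CPM in the other 5. Their plasmacytoid dendritic cell marker sum was 46.7 and 65.2 CPM against 105 to 152 CPM. The part of these cells in the low values was not tested.

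In old Cd11b cells all 7 members had a higher fitted level in MT, none past the threshold, beside 0.336% of genes called in either direction. The count of members with an unadjusted p under 0.05 was 4 of 7, beside 16.6% of all genes (2230 of 13398), and DESeq2 called 1 member, Ciita, and 515 genes of all. The median member difference was 0.27 (log2), beside 0.00 over all genes tested. Ciita differed most, by 0.57 ± 0.10 (edgeR adjusted p = 0.062), a 1.49-fold higher level. Cd74 differed by 0.30 ± 0.12, H2-Aa by 0.29 ± 0.11, H2-Ab1 by 0.27 ± 0.12, H2-Eb1 by 0.26 ± 0.13, H2-DMa by 0.20 ± 0.08 and H2-DMb1 by 0.15 ± 0.08, with edgeR adjusted p between 0.249 and 0.41. The libraries of the genotypes overlapped for H2-DMb1, and those of the other 6 members were all higher in MT, as held for 11.1% of all genes tested.

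These differences were carried unevenly by the libraries. Between the replicates numbered 1, MT exceeded WT by 0.70 (log2 ratio) for Cd74, 0.65 for H2-Aa, 0.63 for H2-Ab1 and 0.64 for H2-Eb1. Between the means of replicates 2 and 3 the ratios were 0.10, 0.10, 0.07 and 0.05. For Ciita they were 0.74 and 0.48, so the transactivator was higher in both parts. The B cell marker sum was 177 CPM in old MT replicate 1 and 54.7 to 79.5 CPM in the other 5 old libraries. The conventional dendritic cell marker sum was 87.5 to 97.3 CPM in old MT and 79.2 to 81.6 CPM in old WT libraries, and old MT replicate 1 was the lowest of the MT libraries in it. The plasmacytoid marker sum was 16.4 to 33.9 CPM in old MT and 11.5 to 11.6 CPM in old WT libraries. The macrophage marker sum went the other way, at 539 to 638 CPM in MT and 652 to 760 CPM in WT libraries, with a lower fitted level in MT for all 10 markers tested. No marker of these 4 cell types was called, and their part in the member differences was not tested. With old MT replicate 1 left out, the Ciita difference was 0.45 (edgeR adjusted p = 0.0347), and without old WT replicate 1 it was 0.59 (edgeR adjusted p = 0.0351). All genes called then numbered 310 and 1819, against 45 with every library, 0 without old MT replicate 2 or 3 and 4 without old WT replicate 2 or 3.

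**Figure D3:**
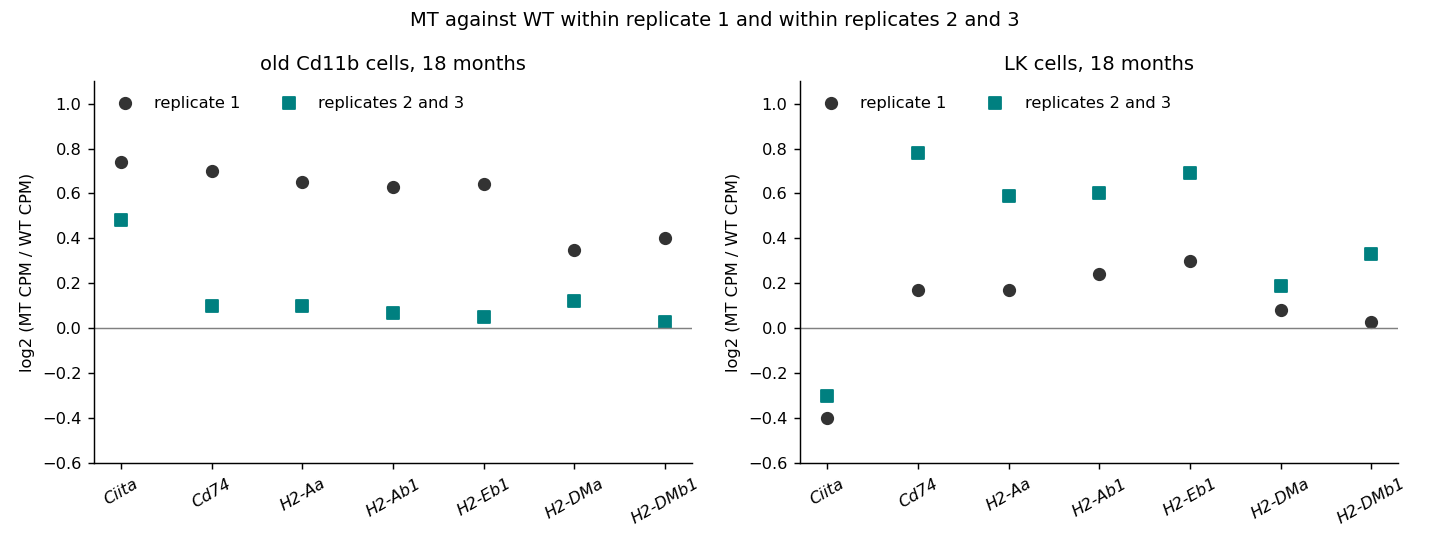
Log2 ratio of MT to WT CPM of each member within replicate 1 (circles) and within the mean of replicates 2 and 3 (squares) of the 18-month sets. In old Cd11b cells the chains and Cd74 lie at 0.63 to 0.70 in replicate 1 and at 0.05 to 0.10 in the others, in LK cells the larger ratios are those of replicates 2 and 3, and Ciita keeps its sign within each set.

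In LK cells 3 of 7 members rose in MT and none fell, beside 13.9% of all genes called higher and 15.9% called lower. H2-Ab1 rose by 0.44 ± 0.09 (log2; edgeR adjusted p = 0.0117), a 1.35-fold change. Cd74 rose by 0.53 ± 0.13 (edgeR adjusted p = 0.0208), a 1.44-fold change, and H2-Aa by 0.41 ± 0.12 (edgeR adjusted p = 0.0353), a 1.33-fold change. H2-Eb1 differed by 0.50 ± 0.16 and lay just outside the threshold (edgeR adjusted p = 0.0512). H2-DMb1 differed by 0.19 ± 0.10 and H2-DMa by 0.12 ± 0.08 (edgeR adjusted p of 0.195 and 0.263). Ciita was the one member with a lower fitted level, by -0.37 ± 0.16 (edgeR adjusted p = 0.11). The MT libraries of Cd74, H2-Aa, H2-Ab1 and H2-Eb1 lay above all WT libraries, as held for 22.1% of all genes tested, and those of Ciita below, as held for 21.2%. The median member difference was 0.41, beside 0.02 over all genes tested and a median size of 0.17.

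The LK calls rest on few libraries. With replicates 2 and 3 summed, no member was called, and 3 genes of all were, so the loss was not one of the members alone. With the length trend removed H2-Aa was at 0.23 (edgeR adjusted p = 0.129), and with all 19 libraries in 1 fit Cd74 and H2-Aa were no longer called (edgeR adjusted p of 0.0779 and 0.0719). With the sum, the Cd74 difference was 0.44 (edgeR adjusted p = 0.202), and over 13 alternatives it ran from 0.38 to 0.69 with adjusted p from 8.66e-05 to 0.202. LK WT replicate 1 was nearest to the MT libraries: between the replicates numbered 1, MT exceeded WT by 0.17 (log2 ratio) for Cd74 and H2-Aa, 0.24 for H2-Ab1 and 0.30 for H2-Eb1, against 0.78, 0.59, 0.60 and 0.69 between the means of replicates 2 and 3. Without LK WT replicate 1 the edgeR test called 5 members, and without LK WT replicate 2 or LK WT replicate 3 it called 0. The H2-Aa call was also lost without LK MT replicate 1, 2 or 3, with edgeR adjusted p of 0.0658, 0.0773 and 0.101, and the Cd74 call without LK MT replicate 2 or 3, with edgeR adjusted p of 0.0677 and 0.0675. Over all genes, 4206 were called with every library, 991 and 1185 without LK MT replicate 2 or 3, and 981 and 1074 without LK WT replicate 2 or 3. The pathway and dendritic cell genes called in LK cells and described below followed: of 12 recomputed, all 12 calls were lost with replicates 2 and 3 summed, and 9 or 10 without any 1 of these 4 libraries.

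Markers of cells that carry class II did not all move with these genes in LK cells. The conventional dendritic cell markers summed to 49.1 to 55.9 CPM in MT and 63.5 to 67.8 CPM in WT, and 3 of the 9 tested fell: Flt3, a receptor of dendritic cell and lymphoid progenitors, by 0.59 ± 0.09 (log2; edgeR adjusted p = 0.00657), the integrin gene Itgax by 0.43 ± 0.09 (edgeR adjusted p = 0.0128) and the transcription factor gene Zbtb46 by 0.29 ± 0.09 (edgeR adjusted p = 0.0451). Flt3 alone stood at 22.79 to 27.62 CPM in LK MT and 35.25 to 37.23 CPM in LK WT libraries. Much of the sum, and of its fall, thus lay in this 1 receptor gene of progenitors. The list was mixed, with a higher fitted level in MT for 5 of the 9 and a median of 0.165, for example Cd209a at 0.56 ± 0.21 (edgeR adjusted p = 0.073). B cell markers summed to 56.2, 95.0 and 95.9 CPM in LK MT and to 74.4, 52.2 and 51.6 CPM in LK WT libraries, and 1 of 11, Cd79b, rose, by 0.42 ± 0.10 (edgeR adjusted p = 0.0164). The fitted level was higher in MT for all 11 B cell markers, with a median of 0.50 (log2) beside 0.41 for the members. Across these 6 libraries the B cell sum was high where Cd74 was high, except in MT replicate 1. Neutrophil markers summed to 1074, 3761 and 3645 CPM in LK MT and to 972, 484 and 460 CPM in LK WT libraries. Macrophage markers summed to 74.6 to 103 CPM in LK MT and 50.5 to 78.0 CPM in LK WT libraries. Timd4 is not among the genes listed for LK cells and added nothing to these sums. No B cell or dendritic cell marker was at 0 in every library of an LK group. The part of such cells in the member differences was not tested.

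**Figure D4:**
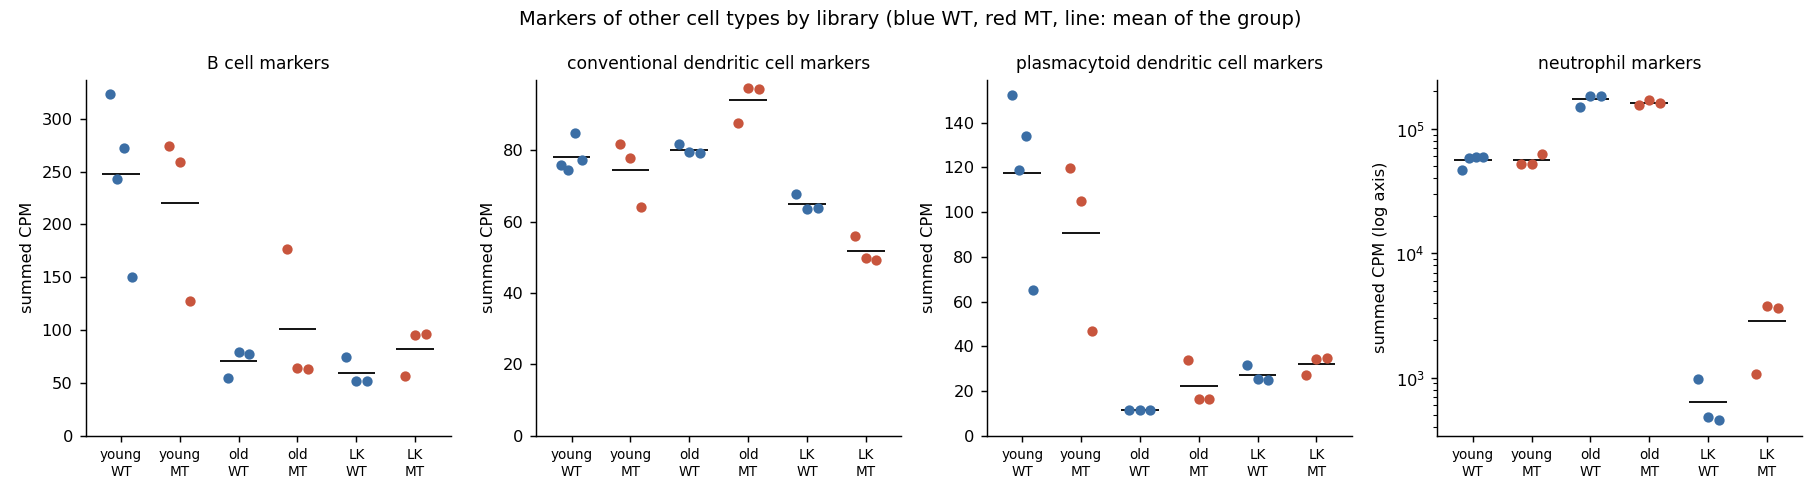
Summed CPM of marker genes of 4 cell types in each library of the 6 groups, with a line at the mean of the group and a log axis for neutrophils. The conventional dendritic cell sum, of which Flt3 is a large part in LK cells, is lower in LK MT than in LK WT libraries. The B cell sum of old MT replicate 1, at 177 CPM, stands above the other old libraries.

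Whether the genotype difference itself changed with age or cell type was tested with interaction terms. Between old and young Cd11b cells no member was called, beside 0.0214% of all genes. The members' interaction values were all above 0, from 0.03 ± 0.12 for H2-DMb1 to 0.51 ± 0.24 for Ciita (log2; edgeR adjusted p of 0.979 and 0.679), and no member was called under any of the 21 alternatives run. The old and young differences are therefore not shown to differ.

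Between LK and old Cd11b cells the genotype difference of 1 member, Ciita, was called, lower in LK, beside 12% of all genes called lower and 8.79% called higher. The interaction was -0.95 ± 0.17 (log2; edgeR adjusted p = 0.00636), made up of the 1.49-fold higher level in old MT cells and the lower level in LK MT cells. Ciita was called in 18 of 19 alternatives, with values from -1.03 to -0.73. The exception was the sum of replicates 2 and 3, where no gene at all was called and the Ciita value was -0.99 (edgeR adjusted p = 0.363). Cd74 was also called without LK WT replicate 1, at 0.44 (edgeR adjusted p = 0.0476). Of 10 pathway and dendritic cell genes called in this interaction and recomputed, all 10 calls were lost in that sum, and 7 without LK WT replicate 2 or 3 or LK MT replicate 3. With every library, the other members differed by -0.08 ± 0.12 for H2-DMa to 0.24 ± 0.23 for H2-Eb1, none past the threshold. Zbtb46 and Flt3 had interaction values of -1.03 ± 0.20 and -0.67 ± 0.13 in the same direction (both with edgeR adjusted p = 0.0088).

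**Figure D5:**
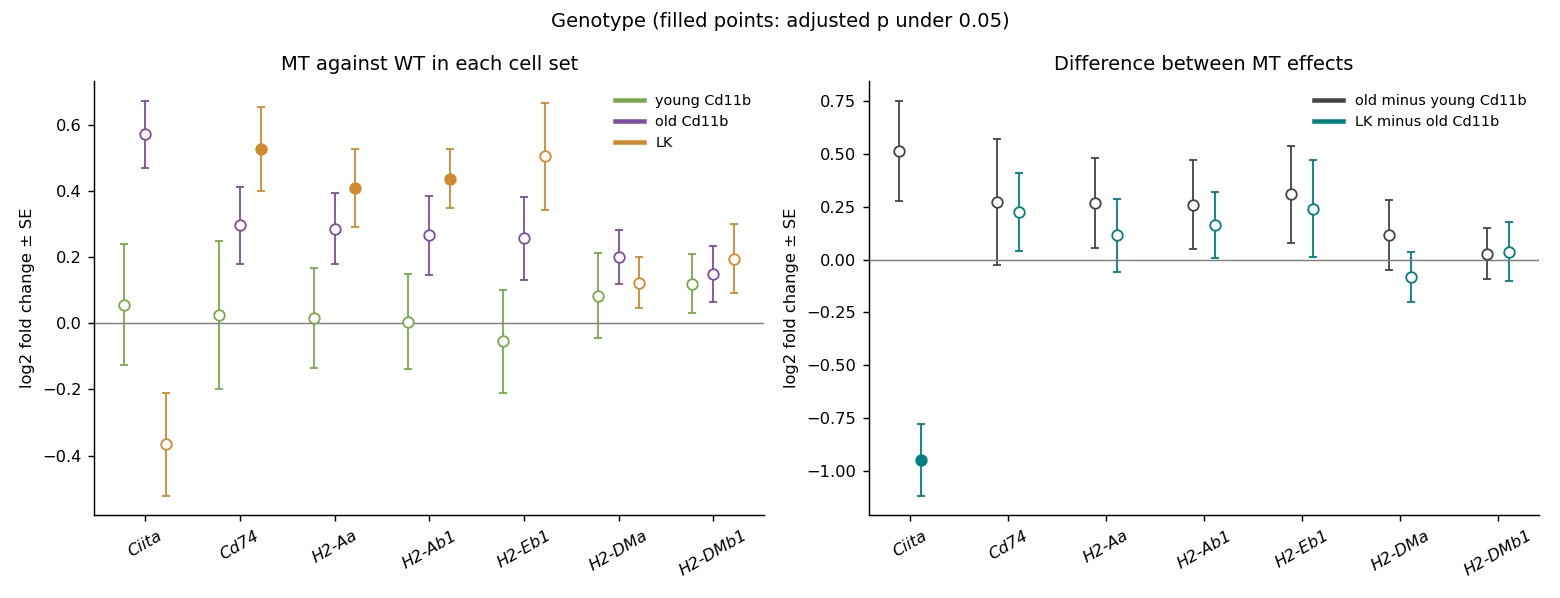
Log2 fold change ± SE of each member, MT against WT, in the 3 cell sets (left), and the difference of these effects between ages and between cell types (right), with filled points for an adjusted p under 0.05. In LK cells Cd74, H2-Aa and H2-Ab1 are filled at 0.41 to 0.53, and in the right panel Ciita alone is filled, at -0.95.

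The other genes of the pathway were read from lists chosen for their role, and their counts stand against the shares of all genes given above for each comparison. Of the further class II chains, H2-Oa, H2-Ob, H2-DMb2 and H2-Eb2 were tested. H2-Ea and H2-Ea-ps were on the same list but were not among the genes listed in any cell set, so they have no values here. H2-Oa and H2-Ob form H2-O, an inhibitor of H2-DM that is known from B cells. None of the 4 was called by genotype in any cell set. In old against young WT cells 3 of 4 fell, against the direction of the classical chains: H2-Ob by 1.68 ± 0.27 (log2; edgeR adjusted p = 0.000429), H2-Oa by 1.22 ± 0.16 and H2-Eb2 by 0.71 ± 0.23 (edgeR adjusted p = 0.0157). The H2-Eb2 call was lost without young WT replicate 3 (edgeR adjusted p = 0.0534) and with all 19 libraries in 1 fit (edgeR adjusted p = 0.086). In MT none of the 4 was called there, with old MT replicate 1 at 18.3 CPM of H2-Ob against 6.05 and 5.77 CPM in the other old MT libraries. In LK against old WT cells H2-DMb2 fell by 2.60 ± 0.16 and H2-Eb2 by 1.79 ± 0.19, while H2-Ob rose by 0.48 ± 0.15 (edgeR adjusted p = 0.0159). The H2-Ob call was lost without LK WT replicate 1 or old WT replicate 2 or 3 (edgeR adjusted p of 0.0725, 0.0571 and 0.0656). It was also lost with all 19 libraries in 1 fit and with replicates 2 and 3 summed (edgeR adjusted p of 0.201 and 0.0646). In old against young WT cells, the pair of cores shown above was held by genes that rose and by genes that fell. The part of these cores in the differences was not tested.

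Among 10 regulators of the class tested, which include the RFX and NF-Y subunits that hold Ciita at the promoter, 1 changed by genotype in LK cells. Irf8, a transcription factor of monocyte and dendritic cell development, fell by 0.23 ± 0.07 (log2; edgeR adjusted p = 0.0454), and Rfxap differed by 0.22 ± 0.07 (edgeR adjusted p = 0.0535). None was called in young or old Cd11b cells. Rfxap was called in the interaction with cell type, at 0.31 ± 0.10 (edgeR adjusted p = 0.0459), the direction opposite to that of Ciita. That call of Rfxap was kept in 3 of 19 alternatives, with values from 0.07 to 0.42. The LK call of Irf8 was kept in 4 of 13 alternatives. In old against young WT cells 4 of 10 rose and 4 fell, near the 36.1% and 36.9% of all genes called in these directions, among them Rfxap, by 1.08 ± 0.09 upward, Nfyc, by 0.65 ± 0.07 upward, and Irf8, at -1.24 ± 0.08 (edgeR adjusted p of 8.97e-06 or less). In MT 3 rose and 4 fell. In LK against old WT cells 2 rose and 5 fell, with Irf8 at 1.07 ± 0.05, Creb1 at -0.83 ± 0.06 and Rfxank at -0.81 ± 0.07. In MT 3 rose and 5 fell.

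Interferon-gamma is the cytokine known to raise Ciita through the kinases Jak1 and Jak2 and the transcription factor Irf1. In LK cells 2 of 8 genes of this list rose in MT and 2 fell, beside 13.9% and 15.9% of all genes. Irf1 rose by 0.22 ± 0.06 (log2; edgeR adjusted p = 0.0257), while Jak1 fell by 0.27 ± 0.06 (edgeR adjusted p = 0.014) and Jak2 by 0.30 ± 0.09 (edgeR adjusted p = 0.0333). None of the list was called in young or old Cd11b cells. In the interaction with cell type 2 of 8 were called higher and 2 lower, among them Irf1 at 0.34 ± 0.09 and Jak1 at -0.33 ± 0.09. In LK against old cells 7 of 8 were called lower in WT and 6 of 8 in MT, beside 41.7% and 41.9% of all genes. Irf1 differed by -2.30 ± 0.08 in WT, beside -2.97 ± 0.10 for Ciita. In old against young cells 5 of 8 rose and 1 fell in each genotype, and Ifng itself fell by 3.73 ± 0.46 in WT.

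Genes of antigen processing, the proteases that cut proteins and the invariant chain, were called for genotype in LK cells in 1 of 5 cases, the cathepsin gene Ctsb, which rose by 0.16 ± 0.04 (log2; edgeR adjusted p = 0.0295). Of 2 genes of class II turnover, which encode ubiquitin ligases, March8 fell by 0.30 ± 0.07 (edgeR adjusted p = 0.0158) and March1 differed by 0.21 ± 0.17. All 5 processing genes were lower in LK than in old Cd11b cells in both genotypes, with Ctss, the protease that trims Cd74 last, at a difference of -3.47 ± 0.12 in WT and Lgmn at -3.99 ± 0.14. March1 differed by -5.31 ± 0.08 in WT, more than any class II chain. In old against young WT cells 4 of 5 processing genes rose and Ctsl fell, with Ctss higher by 0.91 ± 0.06 and Lgmn by 0.98 ± 0.08. In MT 3 of 5 rose.

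The costimulatory genes Cd80, Cd86, Cd40 and Icosl, which act beside class II in T cell contact, were not called for genotype in any set, and all 4 were lower in LK than in old Cd11b cells of both genotypes, for example Icosl by -4.05 ± 0.06 (log2) in WT. In old against young WT cells 3 of 4 rose, Icosl by 0.87 ± 0.10 and Cd86 by 0.35 ± 0.08 among them, and in MT 1 of 4, Icosl, rose. Class I presentation genes give the comparison with the other MHC pathway. In LK MT cells 3 of 11 rose and 1 fell: Psmb10 and Psmb9, both immunoproteasome subunits, rose by 0.27 ± 0.06 and 0.30 ± 0.09 and Tapbp by 0.18 ± 0.05, and the peptidase gene Erap1 fell by 0.30 ± 0.05 (edgeR adjusted p = 0.00847). The class I list median in that comparison was 0.18, beside 0.41 for the class II members. In LK against old WT cells the class I list median was -0.47 against -2.97 for the members, with H2-K1 at -0.16 ± 0.12 and not called. In old against young WT cells 8 of 11 class I genes rose and 3 fell, H2-D1 by 1.15 ± 0.08 upward. The 3 classical class II chains rose by 1.06 to 1.20 between the same sets.

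Likeness to the mean of Cd74, H2-Aa, H2-Ab1 and H2-Eb1 was read within groups, as the correlation of deviations of log2 CPM from the group mean over the 19 libraries. Among 12153 genes with a mean of at least 1 CPM, the 5 most alike that are no members were Tsta3 (r = 0.949), Csrp2 (r = 0.928), Rps3a (r = 0.925), Bst2 (r = 0.92) and Ptrh2 (r = 0.914). Of the members outside that mean, H2-DMa had r = 0.855, Ciita 0.789 and H2-DMb1 0.665. All points share their libraries and replicate structure, and the values are a description of these libraries. The classical genes, at 0.973 to 0.984, are part of the mean they were compared with. Rps3a has near-identical copies in the genome, so its count is uncertain.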

How the data were processed

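The authors deposited whole-number read counts per gene symbol, 1 table per library. STAR, HTSeq, DESeq2 and the build mm10 are named in the submitters' processing notes, and their settings and versions are not given in the sources used here. Per the labels' protocols the kit keeps strand, but use of strand in counting is not stated. The labels' young, old and LK sets list 15703, 15070 and 15793 genes, and comparisons used the genes their sets share.

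For each comparison, edgeR 4.0.16 in R 4.3.3 fitted the counts of its own libraries by quasi-likelihood (genes kept by filterByExpr, TMM factors, robust fit, limma 3.58.1, statmod 1.5.0), and p-values were adjusted by Benjamini-Hochberg over all genes tested. All 7 members passed the filter in each of 9 comparisons. A gene was called at an adjusted p under 0.05. Scripts were tested on simulated data. Alternatives were RLE factors, no filter, DESeq2 1.42.0, a replicate block, all 19 libraries in 1 fit, removal of a transcript-length trend (lengths for 88.7% of genes), libraries left out, and replicates 2 and 3 of 18-month groups summed. Lengths and gene positions are from GENCODE vM21 (GRCm38), promoters from RefSeq. Python 3.11.15, numpy 2.4.6, pandas 2.3.3 and matplotlib 3.10.9 made tables and figures.

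Members and gene lists were chosen with earlier results of these data known. All members are named, and from each pathway list up to 3 called genes per comparison with the smallest adjusted p. Psmb9, the dendritic cell markers, Cd79b and the uncalled genes given with values were chosen after their values were seen. Repeat counts were not used. Values of 1 gene of the interferon-gamma list are not reported here.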

Additional observations from a re-analysis of the deposited data

Results flagged for a closer look

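Cd74 in young WT Cd11b cells had 1 library far below the others: replicate 4 at 239 CPM, against 359 to 360 CPM in replicates 1 to 3. The same library also stood apart for H2-Eb1, at 58.5 CPM against 80.7 to 85.2 CPM. Chance sets apart about 1 in 20 such groups, and the 7 members share their libraries. Replicate 4 was the only young WT library with the Y-linked gene Ddx3y above 1 CPM (109 CPM), and its Xist level was 0.306 CPM against 1689 to 1979 CPM in the other 3. It was also the lowest young WT library in the B cell marker sum (150 CPM) and in the plasmacytoid dendritic cell sum (65.2 CPM). The part of these cells, or of sex, was not tested.

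The genotype difference of Ciita differed between LK and old Cd11b cells by -0.95 ± 0.17 (log2, interaction term, edgeR adjusted p = 0.00636). The direction was opposite in the 2 sets, with 3 of 3 MT libraries above all WT libraries in old Cd11b cells and 3 of 3 below in LK cells. Such a separation held for 11.1% of all genes tested in old Cd11b cells and 21.2% in LK cells, in these directions. Neither difference passed the threshold within its own set, at edgeR adjusted p of 0.062 and 0.11.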

How the results depend on the processing

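Of 945 recomputed log2 fold changes of members, 869 kept their direction and side of the threshold, 26 lost and 13 gained a call, and 37 turned, all of them values that were not called. For LK MT against WT the number of called members, 3, became 0 with the replicate block, 1 with all 19 libraries in 1 fit, 2 with the length trend removed and 0 with replicates 2 and 3 summed. For LK the 3 were also called with RLE factors and with no filter, and DESeq2 called 4. The number called in old Cd11b cells became 1 with DESeq2, and the interaction with cell type became 0 with replicates 2 and 3 summed. With each library left out in turn, members called ran from 0 to 1 in old Cd11b cells, 0 to 5 in LK cells, 1 to 2 in the interaction with cell type and 4 to 6 in old against young MT cells. For LK, 4206 genes of all were called, and 3 both with the replicate block and with replicates 2 and 3 summed.

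The replicate numbers were not taken as pairs: deviations of same-numbered libraries correlated by -0.25 to 0.22, and 2 of 15 pairs were over 0.1. With the replicate block 5 members were called in old against young WT, 6 in MT, 7 in both LK against old comparisons and 1 in the interaction with cell type. The values that turned under a named setting were as follows. With the replicate block, in young Cd11b cells Cd74 was at -0.15, Ciita at -0.0492, H2-Aa at -0.0905 and H2-Ab1 at -0.10, and Ciita was at -0.0545 in old against young WT. With the length trend removed, the interaction with cell type was -0.0957 for H2-Aa, -0.0339 for H2-Ab1 and -0.13 for H2-DMb1, and H2-DMa in old against young cells was -0.17 in WT and -0.0322 in MT. With replicates 2 and 3 summed, that interaction was -0.0174 for H2-Aa and -0.0381 for H2-DMb1. With young MT replicate 3 and young WT replicate 4 left out, H2-DMb1 had -0.0128 in the interaction with age and Ciita -0.0535 in old against young WT.

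With each library left out in turn, the young genotype difference ran from -0.17 to 0.24 for Cd74, -0.19 to 0.24 for Ciita, -0.17 to 0.17 for H2-Aa, -0.11 to 0.16 for H2-Ab1, -0.20 to 0.0845 for H2-Eb1 and -0.0048 to 0.23 for H2-DMa. The interaction with age ran from -0.0286 to 0.21 for H2-DMa and -0.0488 to 0.11 for H2-DMb1, that with cell type from -0.13 to 0.0277 for H2-DMa and -0.021 to 0.21 for H2-DMb1, and Ciita in old against young WT from -0.0535 to 0.0766. The cause of each change was not tested.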
